A study of Homo sapiens with 12 samples.

Results

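Superoxide dismutases, catalase and glutathione peroxidases are the enzymes that clear superoxide and peroxides inside and around cells. All 10 genes asked for by name (SOD1, SOD2, SOD3, CAT, GPX1, GPX2, GPX3, GPX4, GPX7 and GPX8) were found among 59577 genes. The choice was by name and not by a measured value, but earlier results of these data were known when it was made. RNA was sequenced from H1299, an established human lung cancer cell line that the labels call lung adenocarcinoma. In normoxia, 6 samples were kept in 21% O2, 5% CO2 and 74% N2. In hyperoxia, 6 samples were kept in 60% O2, 5% CO2 and 35% N2, and the series gives 24 hours as the exposure time. The labels list no other treatment or genetic change. Separate cultures are not stated for the 6 samples of either group, so the p-values rest on a spread that could be technical. The question of the design was which genes differ in level after the raised oxygen.

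Superoxide dismutases turn superoxide into hydrogen peroxide and oxygen. SOD1 is the copper and zinc enzyme of the cytosol, SOD2 is the manganese enzyme of mitochondria, and SOD3 is the secreted copper and zinc enzyme. Catalase, encoded by CAT, breaks down hydrogen peroxide in peroxisomes. Glutathione peroxidases reduce peroxides with thiols. GPX4 acts on lipid peroxides in membranes and protects cells from ferroptosis, GPX1 is the general cytosolic form, GPX2 is best known from the gut epithelium, and GPX3 is secreted into plasma. GPX7 and GPX8 sit in the endoplasmic reticulum, where they work with protein disulfide isomerases.

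Glutathione peroxidases differ in the residue at the active site, and their reading frames show it. The 27 bases around the active-site codon are printed because they separate the genes that depend on selenium from those that do not. They were read from GENCODE 29 transcripts, 5′ to 3′, and the capitals mark the active-site codon.
GPX1: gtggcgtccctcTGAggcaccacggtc
GPX2: gtggcttcgctcTGAggcacaaccacc
GPX3: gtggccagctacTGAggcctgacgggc
GPX4: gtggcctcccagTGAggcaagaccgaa
GPX7: gtggccagcgagTGCggcttcacagac
GPX8: gtggccagtgacTGCcaactcacagac
TGA is a stop codon elsewhere and is read as selenocysteine in GPX1, GPX2, GPX3 and GPX4, with the help of a hairpin in the mRNA. TGC in GPX7 and GPX8 encodes cysteine.

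Promoter windows of these genes were searched for the core of the antioxidant response element, TGACNNNGC, the site to which the stress factor NRF2 binds. The search covered both strands of RefSeq windows from 250 bases before to 50 bases after each start (GRCh38.p14). The 9 genes with a window had 14 windows, and 1 of them, that of GPX2, held the motif, against 4687 of 35116 windows (13.3%) over all genes. SOD1 had no window to search. The GPX2 stretch is shown with that of GCLM, a reference gene of the NRF2 response, on the strand of each gene and with the motif in capitals.
GPX2: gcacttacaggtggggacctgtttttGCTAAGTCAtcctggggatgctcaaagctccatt
GCLM: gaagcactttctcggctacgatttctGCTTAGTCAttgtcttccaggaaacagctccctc
The GPX2 stretch is chr14:64942834-64942893 on the minus strand, and its motif starts 122 bases before the gene start. The GCLM stretch is chr1:93909431-93909490 on the minus strand, and its motif starts 34 bases before the start. On the opposite strand the motifs read TGACTTAGC and TGACTAAGC. These matches are letters in a window and not measured binding.

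The deposited values are TPM, a level scaled by transcript length and to nearly the same total in each sample, which can be compared between genes of a sample but gives no amount per cell. Values summed to between 996138 and 998797 TPM per sample, 14275 to 14635 genes reached 1 TPM, and the number of reads behind each sample is not given in the sources used here. Subtracting the group mean makes the samples of a group correlate negatively on average, so a negative value alone shows no opposition between sets. Deviations from the group mean correlated over genes at -0.34 to -0.16 between normoxia replicates 1 to 3 and 4 to 6. Within these sets they correlated at -0.22 to 0.01. In hyperoxia the values were -0.27 to -0.13 between and -0.25 to -0.12 within, so no split was visible over all genes there. Among the enzymes themselves, however, hyperoxia replicates 1 to 3 and 4 to 6 did not overlap for SOD2, CAT, GPX3 and GPX8. In normoxia the same held for CAT, with replicates 1 to 3 higher, and for GPX1, with replicates 1 to 3 lower. The share of all tested genes that split in this way was not computed, and the part of this in the results was not tested. Calls lost without normoxia replicates 4 to 6 are given with that value. Of the 5 epithelial and carcinoma markers, the keratins KRT8 (603 TPM in normoxia, 592 in hyperoxia) and KRT18 (955 and 947) were high. The other epithelial markers were near 0, with EPCAM at 0.157 and 0.178 TPM and CDH1 at 0.04 and 0.0283 TPM, and the mesenchymal filament VIM was very high, at 2749.6 to 3522.67 TPM over the 12 samples. The lung epithelial markers SFTPC and SCGB1A1 were listed at 0 in all 12 samples. Summed markers ranged from 39.61 to 50.44 TPM in normoxia and from 39.15 to 50.75 TPM in hyperoxia for leukocytes, nearly all from CD68, with CD3E and MS4A1 at 0. Fibroblast markers summed to 1.71 to 2.68 and 1.12 to 2.31 TPM, and endothelial markers to 0.17 to 0.88 and 0.16 to 1.71 TPM.

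H1299 cells expressed 5 of the 10 genes at a mean of 10 TPM or more. SOD1 (448.6 TPM as the mean of the 12 samples) and GPX4 (379 TPM) stood about 1 order of magnitude above GPX8 (50.03 TPM), SOD2 (49.17 TPM) and CAT (18.91 TPM). In the order of all 59577 genes by mean TPM, SOD1 was at place 295 and GPX4 at place 353, while GPX8 was at 2794, SOD2 at 2840 and CAT at 6081. GPX3 followed at a low 2.472 TPM, place 12362. The other 4 genes had means below 1 TPM and took no part in the main test.

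GPX1 is usually the abundant cytosolic selenoenzyme, yet here it was listed at 0.49 to 1.14 TPM in normoxia (median 1.02) and 0.47 to 1.08 TPM in hyperoxia (median 0.85), with 6 of 12 samples at 1 TPM or more. Its processed copy GPX1P1, a pseudogene 96.7% identical to GPX1 over 612 aligned bases, was listed higher, at 3.09 ± 1.01 TPM in normoxia and 2.532 ± 0.806 TPM in hyperoxia (SD, n = 6 each). GENCODE 29 types GPX1 itself as a polymorphic pseudogene. How reads shared by GPX1 and GPX1P1 were counted is not given in the sources used here, so the GPX1 level is uncertain and a low value is not a measured lack of the enzyme.

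GPX2 was listed from 0 to 0.58 TPM in normoxia and from 0 to 0.3 TPM in hyperoxia, and 3 of 12 samples were at 0. GPX2 overlaps CHURC1 (41 TPM in normoxia, 43.24 in hyperoxia) on the opposite strand, and it is not settled whether counting used the strand. GPX7 was listed from 0 to 0.19 TPM in normoxia and from 0 to 0.2 TPM in hyperoxia, also with 3 samples at 0. SOD3, the secreted dismutase, was listed at 0 in 10 of 12 samples and at 0.04 TPM in normoxia replicates 4 and 5. Among the remaining glutathione peroxidase genes, GPX6 was at 0 in every sample and GPX5 averaged 0.005 TPM in normoxia and 0 in hyperoxia. The plot of levels by gene and sample sets the expressed genes apart from those near 0.

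**Figure D1:**
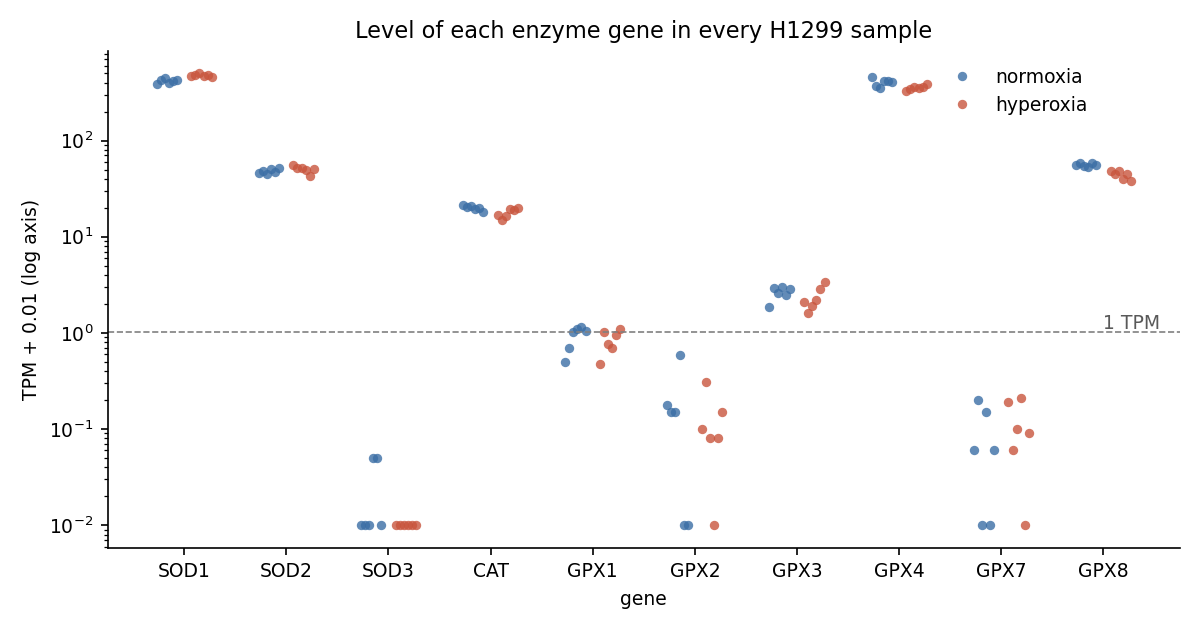
Level of each of the 10 genes in each sample, as TPM + 0.01 on a log axis, with 6 normoxia points (blue) and 6 hyperoxia points (red) per gene and a dashed line at 1 TPM. SOD1 and GPX4 lie at 330.76 TPM or more in every sample, GPX8, SOD2 and CAT between 14.95 and 58.61 TPM, GPX3 between 1.62 and 3.37 TPM, and SOD3 at 0 in all samples but 2.

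After hyperoxia SOD1 rose by 13.9%, GPX8 fell by 21.4% and GPX4 fell by 11.8%, while SOD2, CAT and GPX3 did not pass the test. So 3 of the 6 tested genes passed, 1 higher and 2 lower, where 17.3% of 14520 tested genes passed (11.7% higher and 5.63% lower). This balance over all tested genes depended on the scaling. It was 1698 higher and 818 lower here, and 1323 and 1235 under median-of-ratios scaling. Quantile normalisation gave 1437 higher and 1208 lower. The test was limma on log2(TPM + 1) over genes with a mean of at least 1 TPM, with Benjamini-Hochberg adjustment and a threshold of 0.05. The groups did not overlap for SOD1 (hyperoxia higher, as in 6.20% of tested genes) and for GPX8 (hyperoxia lower, as in 2.58%), or 8.78% of tested genes in either direction. The median difference of these 6 genes was -0.14 on the log2 scale, beside 0.03 for all tested genes. In bulk RNA, fewer cells expressing a gene and less of its mRNA per cell cannot be told apart.

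SOD1 was listed at 390.84, 431.19, 450.06, 399.52, 414.2 and 431.04 TPM in normoxia replicates 1 to 6 and at 474.21, 485.96, 500.31, 464.81, 478.01 and 462.95 TPM in hyperoxia. The lowest hyperoxia sample was above the highest normoxia sample, so the groups were apart. The mean went from 419.5 ± 22.1 to 477.7 ± 14 TPM (SD, n = 6), a log2 difference of 0.19 ± 0.04 (SE; limma adjusted p = 0.00318). Under median-of-ratios scaling the difference was 0.16 with an adjusted p of 0.0561, and SOD1 then no longer passed.

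SOD2 is known to be induced by inflammatory and oxidative signals in many cells. It was listed at 45.77, 47.73, 44.79, 50.75, 47.26 and 51.75 TPM in normoxia and at 55.21, 51.42, 52.32, 49.53, 42.77 and 50.8 TPM in hyperoxia. The groups overlapped, with 2 hyperoxia samples above the normoxia range and 1, replicate 5, below it. The mean was 48.01 ± 2.74 TPM in normoxia and 50.34 ± 4.17 TPM in hyperoxia. The log2 difference of 0.06 had a 95% interval from -0.06 to 0.19 (limma adjusted p = 0.485). The table gives SOD2 a length of 14167 bases, although its GENCODE 29 transcripts run from 454 to 14266 bases, and a long length lowers TPM. Thus the ratio of SOD1 to SOD2 depends on that length. SOD2 also overlaps WTAP (71 and 67.39 TPM) on the opposite strand. On its own strand it overlaps a second GENCODE 29 gene named SOD2, which has no value here. RNU4ATAC18P (9.858 TPM in normoxia, 0 in hyperoxia) and HNRNPH1P1 (0.17 and 0.2517 TPM) overlap it on that strand too. How reads shared by these genes were counted is not given in the sources used here.

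CAT was listed at 21.45, 20.34, 20.82, 19.58, 19.99 and 18.01 TPM in normoxia and at 16.94, 14.95, 16.61, 19.48, 18.76 and 19.96 TPM in hyperoxia. Hyperoxia replicates 1 to 3 lay below the whole normoxia range and replicates 4 to 6 lay within it. In normoxia, replicates 1 to 3 (20.34 to 21.45 TPM) lay above replicates 4 to 6 (18.01 to 19.99 TPM). Replicate numbers did not pair the samples, so these sets are not matched between the groups. The mean was 20.03 ± 1.18 TPM in normoxia and 17.78 ± 1.93 TPM in hyperoxia. The log2 difference of -0.17 (95% interval -0.31 to -0.02) missed the threshold once adjusted (limma adjusted p = 0.112). The authors' deposited table gives CAT a log2 fold change of -0.2117 with an adjusted p of 0.005552, so the sources differ on whether catalase mRNA was under 0.05, although the authors' own call for CAT is "no".

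GPX4 was listed at 454.39, 370.59, 355.6, 416.33, 416.51 and 403.76 TPM in normoxia and at 330.76, 340.61, 360.89, 355.71, 358.18 and 384.65 TPM in hyperoxia. The groups overlapped, because normoxia replicates 2 and 3 lay within the hyperoxia range, while all 6 hyperoxia samples were below the normoxia mean. The mean went from 402.9 ± 35.5 to 355.1 ± 18.5 TPM, a log2 difference of -0.18 ± 0.06 (SE; limma adjusted p = 0.0408). This call was fragile: it was lost under 14 of 24 alternatives, including 9 of the 12 in which 1 sample was left out (all but normoxia replicates 2 and 3 and hyperoxia replicate 6; adjusted p up to 0.0853). Without normoxia replicates 4 to 6 the difference was -0.14 and the adjusted p 0.273.

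GPX8 was listed at 55.96, 58.27, 54.51, 52.8, 58.61 and 55.97 TPM in normoxia and at 48.06, 45.24, 47.96, 40.32, 44.55 and 38.08 TPM in hyperoxia. All 6 hyperoxia samples lay below all 6 normoxia samples. The mean went from 56.02 ± 2.21 to 44.03 ± 4.06 TPM, a log2 difference of -0.34 ± 0.06 (SE; limma adjusted p = 0.00141). This cysteine enzyme of the endoplasmic reticulum had the smallest p of the tested genes of these families, and its call held under all 24 alternatives (adjusted p 0.000936 to 0.0246). GPX8 overlaps CDC20B on the opposite strand, whose level was 0.02333 TPM in normoxia and 0.045 TPM in hyperoxia.

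GPX3 was listed at 1.86, 2.91, 2.57, 2.98, 2.47 and 2.82 TPM in normoxia and at 2.08, 1.62, 1.9, 2.21, 2.87 and 3.37 TPM in hyperoxia. The groups overlapped almost entirely, and hyperoxia held both the lowest and the highest sample. The log2 difference was -0.12 with a 95% interval from -0.40 to 0.16 (limma adjusted p = 0.577). For the 4 genes below 1 TPM, a fit with no filter gave log2 differences of -0.06 for GPX1, -0.06 for GPX2, 0.04 for GPX7 and -0.02 for SOD3, and none passed (limma adjusted p 0.815, 0.791, 0.766 and 0.608). Changes of such low levels are poorly measured on the log2(TPM + 1) scale.

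**Figure D2:**
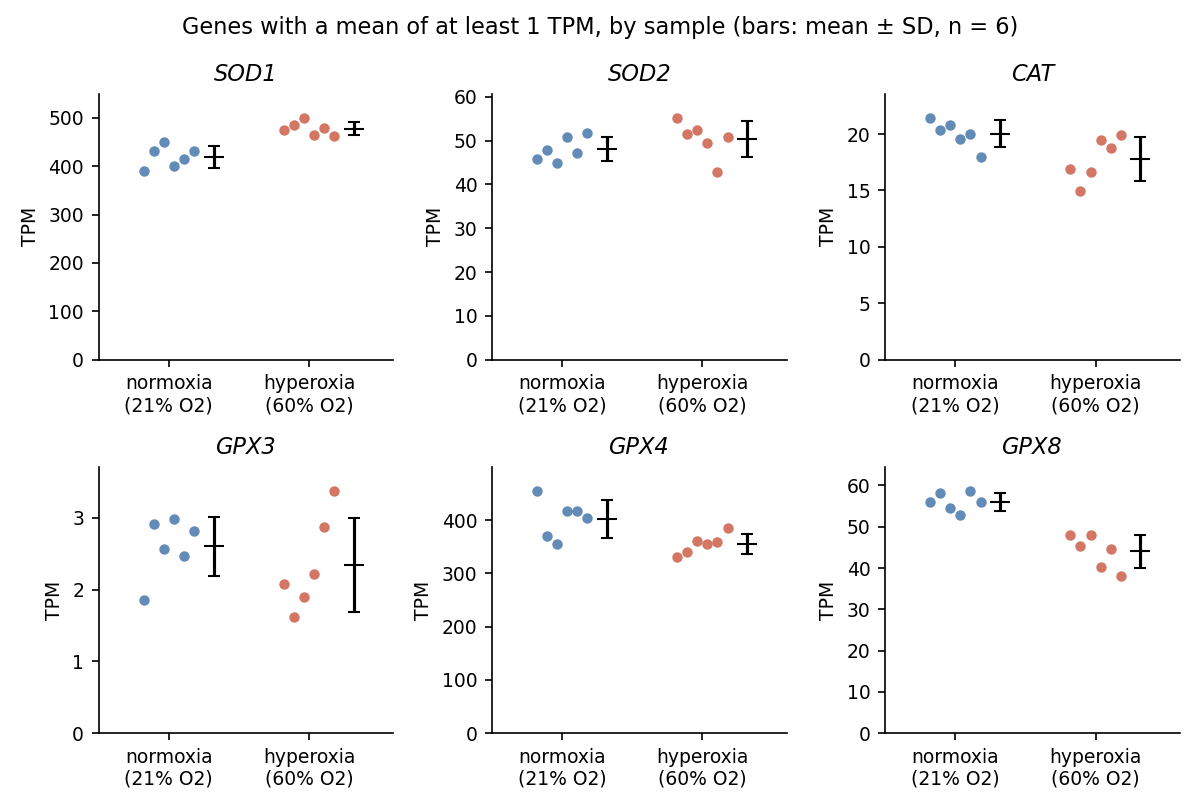
TPM of the 6 tested genes in each of the 6 normoxia (blue) and 6 hyperoxia (red) samples, each panel with its own axis from 0; black bars give the mean ± SD. The groups are apart for SOD1 (hyperoxia above) and GPX8 (hyperoxia below), and overlap for SOD2, CAT, GPX3 and GPX4.

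In the authors' deposited table, 4 of the 10 genes had an adjusted p under 0.05: SOD1 (log2 fold change 0.1618, adjusted p 0.01116), CAT as above, GPX4 (-0.2065, 0.0001528) and GPX8 (-0.3052, 8.3e-11). Over all genes with a value there, 13.9% were under 0.05, and 30.0% of those with a mean of at least 1 TPM. Their own call column reads "no" for all 10. The 357 genes called "yes" there had at least a 2.01-fold rise or a fall to 0.4993 or less, sizes that none of these genes reached. Direction was the same in both sources for SOD1, CAT, GPX3, GPX4 and GPX8, and SOD2 was at -0.02456 in the authors' deposited table against 0.06 here.

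Added up, the 2 enzyme families differed in opposite directions, while the total over all 10 genes differed by less than its spread. Superoxide dismutase mRNA summed to 467.5 ± 21.9 TPM in normoxia (436.6 to 494.9) and 528.1 ± 15.1 TPM in hyperoxia (513.8 to 552.6), and the ranges did not overlap. Glutathione peroxidase mRNA summed to 462.6 ± 35.2 TPM (413.8 to 512.9) and 402.5 ± 16.5 TPM (381.6 to 427.4), and the ranges overlapped. All 10 genes together gave 950.2 ± 17.5 TPM and 948.4 ± 19.7 TPM. No p is given for these sums. Each family sum follows mainly 1 gene, SOD1 or GPX4, whose calls were lost under 1 and 14 of 24 alternatives.

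Within each family 1 gene made up most of the mRNA. SOD1 was 89.7% of superoxide dismutase TPM in normoxia and 90.5% in hyperoxia, shares that rest on the 14167-base length of SOD2. GPX4 was 87% and 88.2% of glutathione peroxidase TPM, and GPX8 was 12.2% and 11%. Of the 4 selenocysteine genes, GPX4 held 99.1% in both groups, a share that also rests on the uncertain GPX1 level.

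SOD1 was the more abundant of the pair SOD1 and GPX4 in every hyperoxia sample but not in every normoxia sample. The ratio of their TPM was 1.05 ± 0.146 in normoxia (0.86 to 1.27), above 1 in 3 of 6 samples, so SOD1 and GPX4 had no fixed order there. In hyperoxia it was 1.35 ± 0.0869 (1.2 to 1.43), above 1 in 6 of 6 samples, and the ranges overlapped only between 1.2 and 1.27. The ratio of SOD2 to GPX8 went from 0.858 ± 0.0666 (0.806 to 0.961) to 1.15 ± 0.126 (0.96 to 1.33), so GPX8 was above SOD2 in all 6 normoxia samples and below it in 5 of 6 hyperoxia samples, an order that depends on the length given to SOD2. SOD1 stood 21 ± 1.85 times above CAT in normoxia and 27.2 ± 3.67 times in hyperoxia. SOD1 and CAT make and remove hydrogen peroxide in different compartments, and a ratio of mRNA is not a ratio of enzyme activity.

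**Figure D3:**
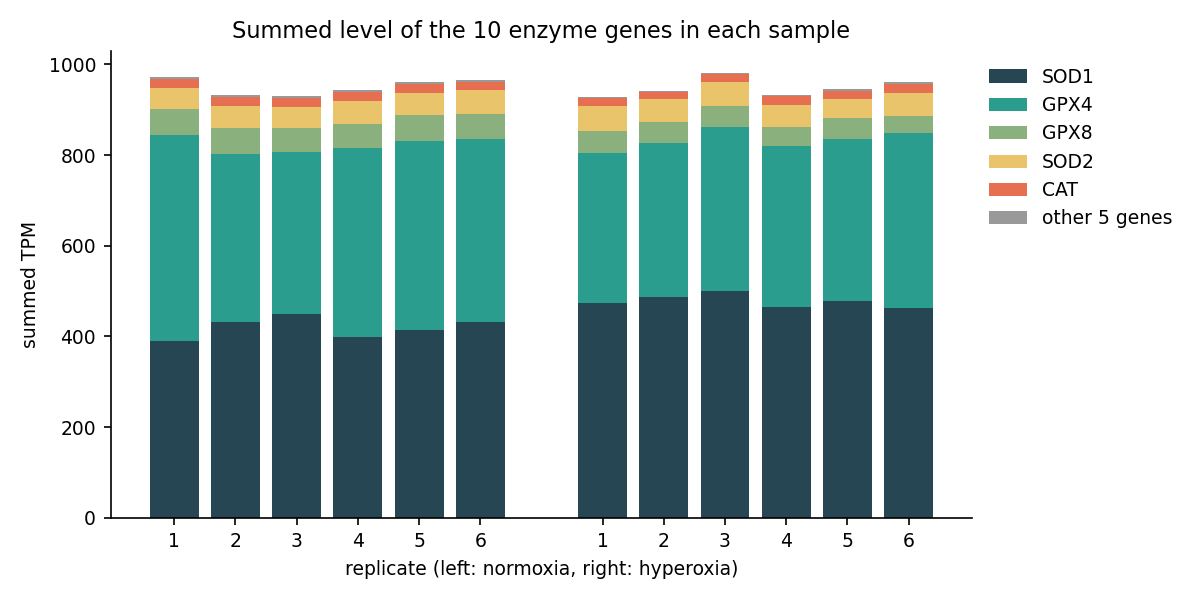
Summed TPM of the 10 genes in each sample, normoxia replicates 1 to 6 on the left and hyperoxia replicates 1 to 6 on the right, stacked by gene with SOD1 at the base and GPX4 above it. All totals lie between 928 and 980.9 TPM, and the SOD1 part is taller in every hyperoxia sample than in any normoxia sample.

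Of 9 tested genes for metal handling and activation of the superoxide dismutases, 2 passed as higher and 0 as lower. Of all tested genes, 11.7% and 5.63% did. The median log2 difference of these 9 genes was 0.03, as over all tested genes. SLC39A8, a zinc and manganese importer, rose from 20.92 ± 1.59 to 24.91 ± 0.882 TPM (log2 difference 0.24, limma adjusted p = 0.00602). ATP7B, a copper exporter, went from 4.487 to 5.423 TPM (log2 difference 0.23, adjusted p = 0.036), a call lost under 12 of 23 alternatives, among them 9 of the 12 in which 1 sample was left out (all but normoxia replicates 1 and 4 and hyperoxia replicate 6; adjusted p up to 0.0721). Without normoxia replicates 4 to 6 its adjusted p was 0.129. CCS, the chaperone that loads copper into SOD1, was at 19.5 ± 2.61 and 23.05 ± 1.81 TPM, and its log2 difference of 0.24 did not pass (adjusted p = 0.0674; 0.0431 without normoxia replicate 1). The deposited columns of ATOX1, a copper chaperone in this list, disagree with each other, and without it 2 of 8 passed as higher.

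The machinery that inserts selenocysteine is needed to read the TGA codon of GPX1 to GPX4. Of 11 tested genes for this machinery and for selenium supply, 2 fell, 1 rose and 8 did not pass. Their median log2 difference was -0.04. Over all tested genes, 5.63% passed as lower and 11.7% as higher. SECISBP2, which binds the mRNA hairpin that recodes TGA, fell from 20.83 ± 1.23 to 16.59 ± 0.784 TPM (log2 difference -0.31, limma adjusted p = 0.000855). EEFSEC, the elongation factor that delivers selenocysteine tRNA, fell from 6.915 ± 0.447 to 5.262 ± 0.773 TPM (-0.35, adjusted p = 0.0131), though without normoxia replicates 4 to 6 the difference was -0.29 and the adjusted p 0.138. TRIT1, a tRNA-modifying enzyme, rose from 21.89 ± 1.24 to 26.7 ± 2.41 TPM (0.27, adjusted p = 0.00862).

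Glutathione is the thiol that most glutathione peroxidases consume, and several of its supply genes had larger log2 differences than any of the peroxidases. Of 10 tested, 4 rose, 2 fell and 4 did not pass, with a median log2 difference of 0.16. The shares over all tested genes were 11.7% higher and 5.63% lower. GCLM, the modifier subunit of the first synthetic step, rose from 11.73 ± 0.28 to 25.37 ± 1.95 TPM (log2 difference 1.05, limma adjusted p = 1.88e-08). GSR, which recycles oxidised glutathione, rose from 35.99 ± 0.854 to 61.83 ± 2.06 TPM (0.76, adjusted p = 7.27e-09). The other rises were those of GLRX, a glutaredoxin (0.47), and GCLC, the catalytic partner of GCLM (0.40). CHAC1, which degrades glutathione, fell from 72.47 ± 17.6 to 22.84 ± 2.79 TPM (-1.60, adjusted p = 8.65e-06). SLC7A11, the cystine importer, fell by 0.44 on the log2 scale, from 11.23 ± 2.27 to 7.953 ± 0.941 TPM (adjusted p = 0.0172).

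Peroxiredoxins and the thioredoxin system remove hydrogen peroxide beside catalase and the glutathione peroxidases. Of 10 tested genes, 5 passed as higher, 0 as lower and 5 did not pass, with a median log2 difference of 0.13. Among all tested genes 11.7% passed as higher and 5.63% as lower. SRXN1, which repairs over-oxidised peroxiredoxins, rose from 52.06 ± 3.3 to 98.86 ± 2.85 TPM (log2 difference 0.91, limma adjusted p = 1.18e-08). TXNRD1, a selenocysteine enzyme that reduces thioredoxin, rose from 295.1 ± 18.5 to 541.5 ± 22.8 TPM (0.88, adjusted p = 1.88e-08). TXN, thioredoxin itself, rose from 418.5 ± 23.6 to 555.8 ± 31.6 TPM (0.41, adjusted p = 6.19e-05). PRDX1, at 1003 and 1329 TPM the most abundant of these, rose by 0.41 on the log2 scale. PRDX6 rose by 0.15 (adjusted p = 0.00783), with 0.13 and an adjusted p of 0.105 under median-of-ratios scaling and 0.11 and 0.101 without normoxia replicates 4 to 6.

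Catalase works in peroxisomes, so genes for peroxisomal import and for oxidases there were counted. Of 13 tested, 4 passed as higher and none as lower, beside 11.7% and 5.63% of all tested genes. The median log2 difference of the 13 was 0.11, while CAT itself had a difference of -0.17 that did not pass. All 4 were import genes: PEX2, a ubiquitin ligase subunit (0.34, limma adjusted p = 0.0184), PEX26, a membrane anchor (0.24, 0.0179), PEX13, a docking factor (0.20, 0.0107), and PEX3, a membrane protein receptor (0.23, 0.0462). Of these 4, only PEX13 had groups that did not overlap. The PEX3 call was lost under 16 of 24 alternatives, among them 9 of the 12 in which 1 sample was left out (all but normoxia replicates 3 and 6 and hyperoxia replicate 6, adjusted p up to 0.101). PEX2 was lost under 3, and PEX13 and PEX26 under 1 each. Without normoxia replicates 4 to 6 the adjusted p was 0.0747 for PEX2, 0.0711 for PEX13 and 0.148 for PEX3.

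**Figure D4:**
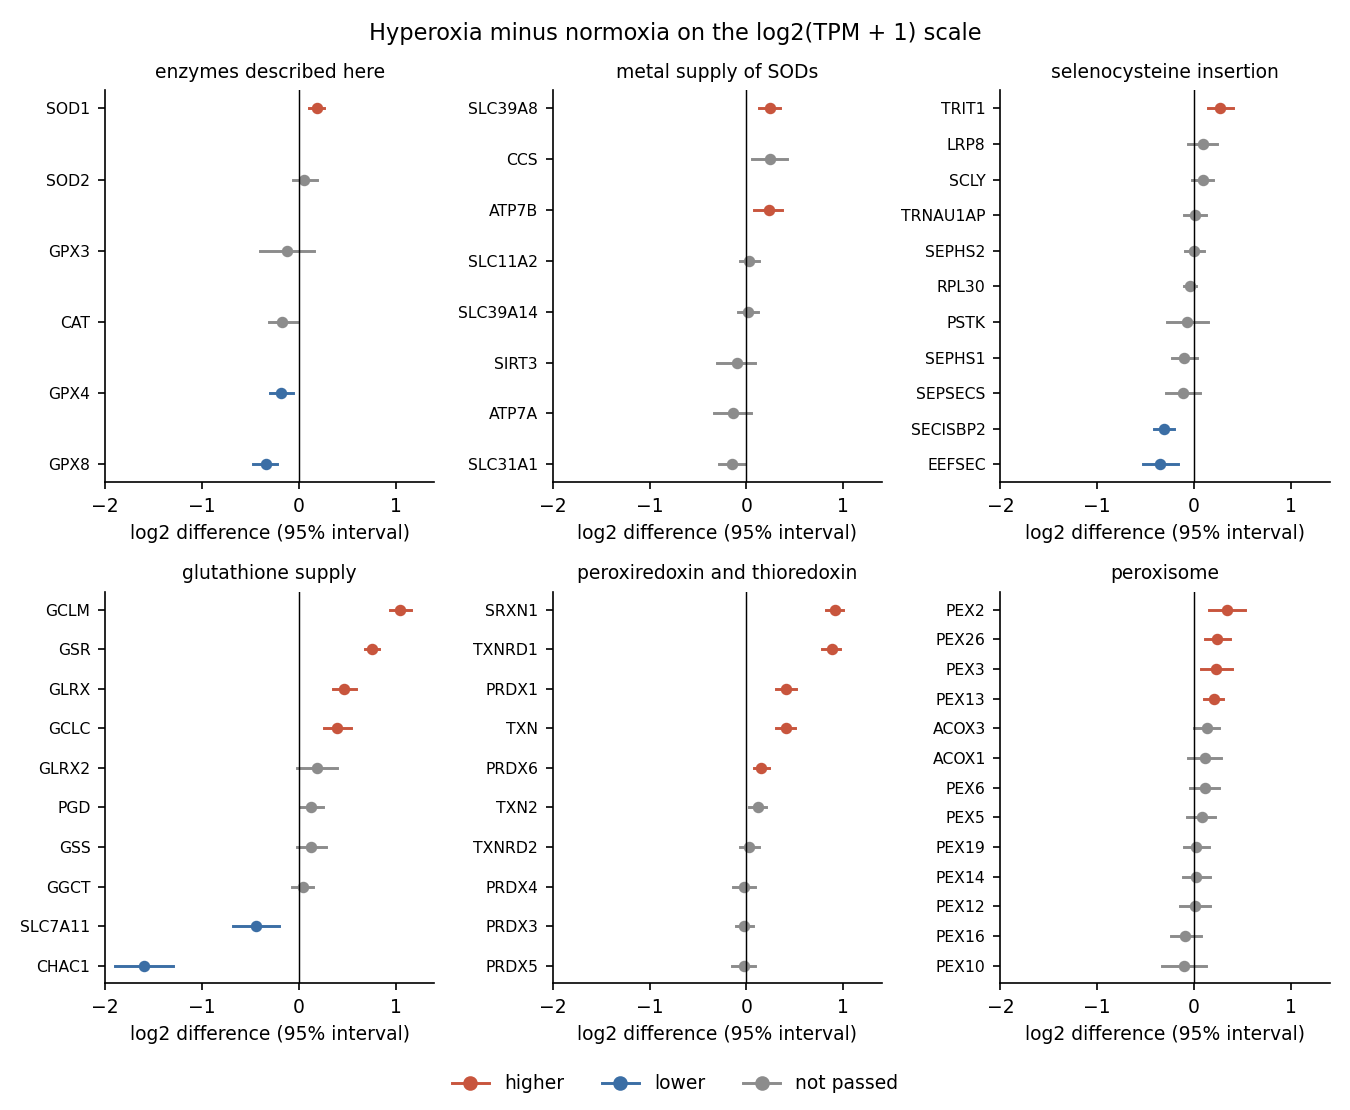
Hyperoxia minus normoxia on the log2(TPM + 1) scale for the tested enzymes and the genes of 5 related lists, with 95% intervals from limma; red marks genes past the threshold as higher, blue as lower and grey those that did not pass, and ATOX1 is left out because its deposited columns disagree. SOD1, GPX4 and GPX8 lie within 0.34 of 0, while GCLM is at 1.05, SRXN1 at 0.91, TXNRD1 at 0.88 and CHAC1 at -1.60.

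Reference targets of NRF2, the main factor of the oxidative stress response, show how far the same samples moved elsewhere. All 6 of these genes passed as higher, where 11.7% of all tested genes did, with a median log2 difference of 0.99. The list was chosen with earlier results of these data known, so its count is a description and no test. TXNRD1, GCLM and SRXN1 among them were already counted in the lists above. HMOX1, heme oxygenase, rose from 21.49 ± 1.53 to 95.29 ± 14.7 TPM (log2 difference 2.09), OSGIN1 from 11.86 ± 1.29 to 51.64 ± 3.49 TPM (2.04) and NQO1 from 323 ± 9.62 to 613.6 ± 24.8 TPM (0.92), with limma adjusted p of 7.27e-09, 8.49e-10 and 8.49e-10. The rise of SOD1 by 0.19 was smaller than each of these. GPX2, whose window holds the motif shown above, stayed at or near 0 in both groups (means 0.1717 and 0.1117 TPM). Of the other reference genes, TXNRD1 had 3 matches to the motif, the windows of NQO1, OSGIN1 and SRXN1 held none, and HMOX1 had no window to search.

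The genes whose pattern over the 12 samples was most like that of GPX8 were MT-ND3, a mitochondrially encoded subunit of complex I, ITFG2 and LMO4. Likeness was the root mean square distance between mean-centred log2(TPM + 1) values, which was 0.0673 for MT-ND3, 0.0732 for ITFG2 and 0.0837 for LMO4, against a median of 0.261 over all other tested genes. The group means in normoxia and hyperoxia were 3490 and 2777 TPM for MT-ND3, 18.78 and 14.94 TPM for ITFG2 and 43.63 and 34.78 TPM for LMO4. The choice by likeness fixes a difference like that of GPX8, so these values are a description with no test.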

How the data were processed

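Values are TPM per gene and sample in 1 table that the authors deposited. Per the submitters' processing notes, HTSeq 0.9.1 and edgeR 3.16.5 were used. The notes list a mouse build while every gene ID is human, and the labels and design text differ on the library kit, so the build, the strandedness and the read depth stay unsettled. The authors' deposited table also holds fold ratios, log2 fold changes and adjusted p-values, quoted as theirs. In 78 rows (none of the 10 genes; of the lists ATOX1, HIF1A and BACH1) deposited columns disagree beyond 0.0001 TPM or 1e-06 log2. A blank row was left out.

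Genes with a mean of at least 1 TPM (14520) were tested two-sided with limma 3.58.1 (R 4.3.3; mean-variance trend) on log2(TPM + 1), which understates changes of low genes, with Benjamini-Hochberg adjustment at 0.05. On simulated data for this comparison, with 14520 genes, 20% of changes of 0.2 log2 and 73% of 0.5 log2 were recovered. Only 100 genes were changed at each size there, against 2516 called in the data, so the adjustment was stricter than in the data. These shares pool genes of all tested levels and give no limit for single genes. Some list genes are not reported here and are in no list count. Replicate numbers did not pair the samples. The 10 genes and the lists were chosen with earlier results of these data known. Named are all 10 genes, the reference genes, up to 3 genes per list with the smallest p, and the 3 patterns nearest that of the enzyme gene with the smallest p; other list genes and markers were picked after their values were seen. Alternatives were other pseudocounts, filters, scalings, variance models, tests and left-out samples.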

Additional observations from a re-analysis of the deposited data

Results flagged for a closer look

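GPX2 in normoxia replicate 4 was listed at 0.58 TPM while the other normoxia samples lay between 0 and 0.17 TPM. The gap to the next sample was 0.707 of the range of the group, above Dixon's 95% critical value for 6 samples. It was the only one past that value among 19 groups of the 10 genes that had a range, and chance gives about 1 in 20. All these levels are below 1 TPM.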

How the results depend on the processing

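Under 24 alternatives no direction reversed for the tested enzymes, the called list genes or the 3 genes with patterns like GPX8. The count of genes past the threshold, 2516, ranged from 1375 to 2707; 1375 (1000 higher, 375 lower) came from leaving out normoxia replicates 4, 5 and 6 together, which also leaves fewer samples. With 1 sample left out it ranged from 1969 to 2456. Of the 10 genes, 2 or 3 passed under every alternative. GPX8 passed in all, SOD1 in all but median-of-ratios scaling, and CAT, SOD2 and GPX3 in none (adjusted p from 0.061 for CAT, 0.135 for SOD2 and 0.285 for GPX3 upward). GPX4 missed the threshold with no filter (adjusted p = 0.106), no variance trend (0.0681) and the exact rank-sum test (0.151); the cause was not tested. The summed superoxide dismutase difference ranged from 50.8 to 66 TPM and that of glutathione peroxidases from -69.9 to -50 TPM.

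Same-numbered samples correlated at -0.12 to 0.02 in their deviations, and 0 of 6 correlated best with their own number. With the replicate number as a block, 2545 genes passed (1656 higher, 889 lower) and 2 of the 10, SOD1 and GPX8, with GPX4 at an adjusted p of 0.0646. CCS passed under 4 alternatives. Differences of 0.2 log2 were often missed in the simulated data. Fewer genes were changed there than were called here, so those data set no limit for these genes.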

Other observations

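Of 20 genes for oxidases and partners that make superoxide or peroxide, 6 had a mean of at least 1 TPM. None of these passed the test (median log2 difference 0.07), where 17.3% of all tested genes did. CYBA, a membrane subunit of NADPH oxidases, was at 65.6 TPM in normoxia against 74.45 TPM after hyperoxia (log2 difference 0.18, limma adjusted p = 0.0658; 0.0484 without normoxia replicate 5 and 0.0357 without hyperoxia replicate 1). RAC1, a small GTPase that activates such oxidases, had a difference of 0.07 (adjusted p = 0.219), and ERO1B, an oxidase of the endoplasmic reticulum, one of 0.22 (adjusted p = 0.113). The catalytic subunits NOX1, NOX3, NOX4, NOX5, CYBB, DUOX1 and DUOX2 were all below 1 TPM.

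Among 11 tested transcription factors known to act on these enzymes, 2 rose and 2 fell. Without HIF1A and BACH1, whose deposited columns disagree, 2 of 9 rose and none fell. Shares over all tested genes were 11.7% for rises and 5.63% for falls. KEAP1, which holds NRF2 in check, rose from 45.92 ± 3.48 to 58.72 ± 4.32 TPM (log2 difference 0.35, limma adjusted p = 0.00141). RELA, a subunit of NF-kB, rose by 0.22 on the log2 scale (adjusted p = 0.0207), with an adjusted p of 0.0511 without a filter on low values. The mRNA of NRF2 itself, NFE2L2, was at 77.68 ± 5 and 78.24 ± 2.57 TPM (0.01, adjusted p = 0.885). PRDX2, often an abundant cytosolic peroxiredoxin, was listed at 0.1233 TPM in both groups and was not tested; how reads shared with copies of a gene were counted is not known here, so this is not a measured lack.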
